A study of Drosophila melanogaster with 2 samples.

Results

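Peaks at divergent gene-pair promoters are regions bound by the tagged protein gooseberry (gsb) whose summit lay within 1 kb of a transcription start site (TSS) of protein-coding genes on each of the 2 DNA strands. They were chosen by gene annotation alone, from the list of peaks that the authors obtained over both replicates. Of 2877 peaks on the 6 main chromosome arms, 514 qualified (17.9%, exact 95% interval 16.5 to 19.3). The data come from chromatin immunoprecipitation and sequencing (ChIP-seq) of whole Drosophila melanogaster embryos, aged 0 to 18 h, of a strain with a gsb-eGFP fusion, and the precipitation used an antibody against GFP. There was 1 group of 2 biological replicates and no group to compare it with. Every cell type of the embryo contributed, so weak binding in many cells and strong binding in few cannot be told apart. The number of reads is unknown from peak lists. Signal below is the peak caller's value for a region, in the authors' units, and intervals cover counting error only.

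A divergent gene pair consists of neighbouring genes that are transcribed away from each other, so that their promoters share 1 stretch of DNA. Such pairs are frequent in the compact genome of the fly, and many hold broadly expressed genes of basic cell functions. Promoters of this kind are known for the elements of DREF and BEAF-32, factors of housekeeping promoters and of chromatin domain borders, while gooseberry, of the Pax family, binds DNA through its paired domain and its homeodomain and takes part in segment patterning and neural development.

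The sequences around 9 summits show what these regions look like, all of 1 length on the plus strand with the summit in the middle, from the RefSeq copy of Release 6 (dm6). Capitals mark 5 motifs in either direction that were more frequent at these summits than at other promoter peaks (values below). They are TATCGATA, the element of DREF (DRE). Then there is CGATA, the core of BEAF-32 sites, which the DRE also contains. Further ones are TAATTA for homeodomains, CAGCTG for E-boxes and TATAAA for the TATA box. The first 4 are among the strongest peaks with a whole DRE in the printed window, at chr2L:17484296-17484416, chr3R:30208928-30209048, chr3R:13661239-13661359 and chr3R:18983680-18983800. Names give the minus-strand gene first.
GCS2beta/CG5131: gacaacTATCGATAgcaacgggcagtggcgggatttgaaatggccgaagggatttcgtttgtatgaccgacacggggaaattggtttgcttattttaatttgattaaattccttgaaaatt
RpS7/Anp: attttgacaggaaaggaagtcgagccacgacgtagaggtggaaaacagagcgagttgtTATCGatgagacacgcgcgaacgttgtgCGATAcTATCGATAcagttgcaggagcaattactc
Hrb87F/B52: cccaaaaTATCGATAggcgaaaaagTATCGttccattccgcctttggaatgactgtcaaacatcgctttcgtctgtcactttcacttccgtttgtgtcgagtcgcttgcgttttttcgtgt
snRNP-U1-C/gukh: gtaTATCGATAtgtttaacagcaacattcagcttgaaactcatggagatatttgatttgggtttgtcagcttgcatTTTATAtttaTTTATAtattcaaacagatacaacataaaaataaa
The TSS of GCS2beta is base 12 of the first of these, that of the ribosomal protein gene RpS7 is base 93 of the second, and that of the splicing factor gene B52 is base 73 of the third. Their signals were 291 (150 in replicate 1 and 145 in replicate 2), 166 (111 and 56.2), 165 (92.0 and 71.1) and 160 (105 and 60.4). All 4 were picked among the strongest, so their place above the median of 133 over the 514 members follows from that choice. The 42 members with a DRE within 100 bp of the summit had a median signal of 118, and the 472 without one had 135. The highest signal of any member with a DRE in that range was 814. The next 3 are the strongest peaks with a homeodomain site and no DRE, at chr3R:29736792-29736912, chr3L:5139431-5139551 and chr3R:31404582-31404702.
CG7601/CIA30: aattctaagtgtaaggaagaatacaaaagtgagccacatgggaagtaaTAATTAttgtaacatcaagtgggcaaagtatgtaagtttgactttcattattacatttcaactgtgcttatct
Tcs5/CHMP2B: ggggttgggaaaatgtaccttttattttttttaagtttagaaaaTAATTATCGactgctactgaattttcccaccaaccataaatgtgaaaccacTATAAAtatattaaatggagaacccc
PNPase/Gprk2: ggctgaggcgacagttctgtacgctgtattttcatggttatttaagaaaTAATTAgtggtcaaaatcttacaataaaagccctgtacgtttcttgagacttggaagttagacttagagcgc
In all 3 the homeodomain site lay just to the left of the summit. The last 2 are the strongest with none of the 5 motifs in the window, at chrX:2703830-2703950 and chr2L:13835398-13835518.
Ugalt/eIF2Bbeta: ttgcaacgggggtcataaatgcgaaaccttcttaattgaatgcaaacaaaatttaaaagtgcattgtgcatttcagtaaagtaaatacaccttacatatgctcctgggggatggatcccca
mRpS23/CenG1A: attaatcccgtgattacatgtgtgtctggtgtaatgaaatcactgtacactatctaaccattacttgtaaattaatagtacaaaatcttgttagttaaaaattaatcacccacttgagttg
Both are richer in signal than any peak shown above with a motif. The TSS of Ugalt is base 23 of its sequence.

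The highest signal was 2108, in the promoter shared by Ugalt, a UDP-galactose transporter gene, and eIF2Bbeta, a subunit of the translation factor eIF2B (chrX:2703716-2704054). It was 1110 in replicate 1 and 1015 in replicate 2. The summit was 38 bp from the TSS of Ugalt and 681 bp from that of eIF2Bbeta. At mRpL41, a mitochondrial ribosomal protein gene, and CG8079 (chr2R:15217592-15217911) the signal was 1509, with 883 in replicate 1 and 626 in replicate 2. Here, too, the summit was much closer to 1 TSS, at 127 bp from mRpL41 and 635 bp from CG8079.

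These were followed by pairs with signals of 996 to 1314. The pair of mRpS23 with CenG1A, a regulator of Arf GTPases, had a signal of 1314 (682 and 624). CG7601 with CIA30, an assembly factor of respiratory complex I, had 1257 (674 and 585), and the summit was 107 and 113 bp from the TSSs, nearly midway. PNPase, a nuclease of mitochondrial RNA, with the receptor kinase gene Gprk2 had 1253 (644 and 612). Art3, an arginine methyltransferase gene, with mRpS10 had 1211 (624 and 583), and mRpL23 with CG9004 had 996 (517 and 482).

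The rest of the 15 strongest were as follows. Tcs5, of tRNA modification, with the ESCRT gene CHMP2B had 1254 (706 and 549), and CG5611 with Mtl had 1146 (620 and 510). The peak at Dpit47, a co-chaperone gene, and Adf1, a transcription factor gene, had 1004 (589 and 411) and lay apart from both, in an intron 787 bp from the nearer TSS. Chro, a protein of chromosome interbands, with Ssl1, a subunit of TFIIH, had 846 (454 and 396). The remaining 4 pairs were CG13390 with CG17294 (973), the peroxisome gene Pex11ab with CG8320 (867), the tubulin acetyltransferase gene Atat with the adaptor gene Shc (814) and the F-box gene Fbw5 with CG9147 (813). In 14 of these 15 the signal was higher in replicate 1, and all 15 were in the list of each replicate. Signals of the 2 replicates come from separately called lists and are not scaled to each other here.

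**Figure D1:**
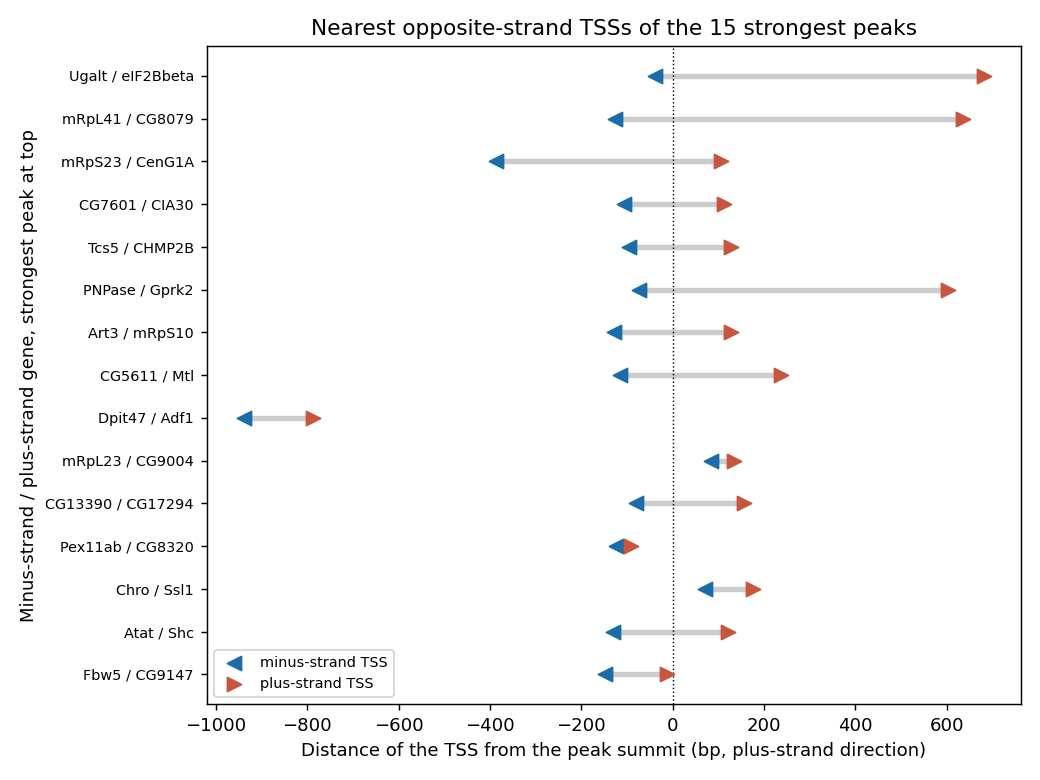
The 15 strongest peaks at divergent pairs, strongest at the top, with the distance in bp (x axis) from the summit, at 0, to the nearest minus-strand TSS (blue) and plus-strand TSS (red). In 10 of the 15 the summit lies between the TSSs, and in 14 it is within 200 bp of one.

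Members made up a larger part of the strong peaks than of the list. Of the 20 strongest peaks of the combined list 11 were at divergent pairs (55.0%, exact 95% interval 31.5 to 76.9), of the 100 strongest 29, of the 500 strongest 134 (26.8%, 23.0 to 30.9) and of the 1000 strongest 231 (23.1%). Over all 514 the signal ranged from 2.46 to 2108, with a median of 133 and quartiles of 94.5 and 225. The 1093 peaks with a TSS of 1 strand only within 1 kb (one-direction promoter peaks) had a median of 118 (87.8 to 191), and the 1270 peaks with no TSS within 1 kb had 104. The ratio of the first 2 medians was 1.13, and it was 1.03 in the list of replicate 2 and 1.06 in that of replicate 1.

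At the low end, 21 of the 514 members had a signal below 23.6, the median of candidate regions that had not passed. All 21 overlapped a stronger peak of the combined list. The lowest, at msn and RpL8 (2.46), overlapped a peak of signal 90.2, and no candidate region of either replicate held its summit. With every peak that overlaps a stronger one left out, 490 members remained.

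The replicates gave similar values at most members. In 482 of the 514 the summit lay in a candidate region of both replicates, and over these the median ratio of replicate 1 to replicate 2 was 1.07 (quartiles 0.880 and 1.31). The ratio exceeded 2 in 15 of the 482 and was below 0.5 in 9. Spearman's rank correlation was 0.802, a description across regions that share 2 libraries. Members had passed the authors' threshold, set on how alike replicates rank a region, so similar values follow in part from that filter. In the replicates' own lists, 268 members (52.1%, exact 95% interval 47.7 to 56.5) lay in a passing peak of both. Another 71 were found by replicate 1 alone, 69 by replicate 2 alone, and 106 by neither. All of the 100 strongest were in both. Among one-direction promoter peaks 45.8% of 1093 were in both (Fisher's exact test, two-sided, odds ratio 1.29, 95% interval 1.04 to 1.59, p = 0.0186, also after adjustment over 2 such tests). This difference was small and did not hold in the conservative list (odds ratio 1.21, exact p = 0.0810), among the stronger peaks (1.05, exact p = 0.856), at a global IDR of at most 0.001 or with a window of 2 kb.

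**Figure D2:**
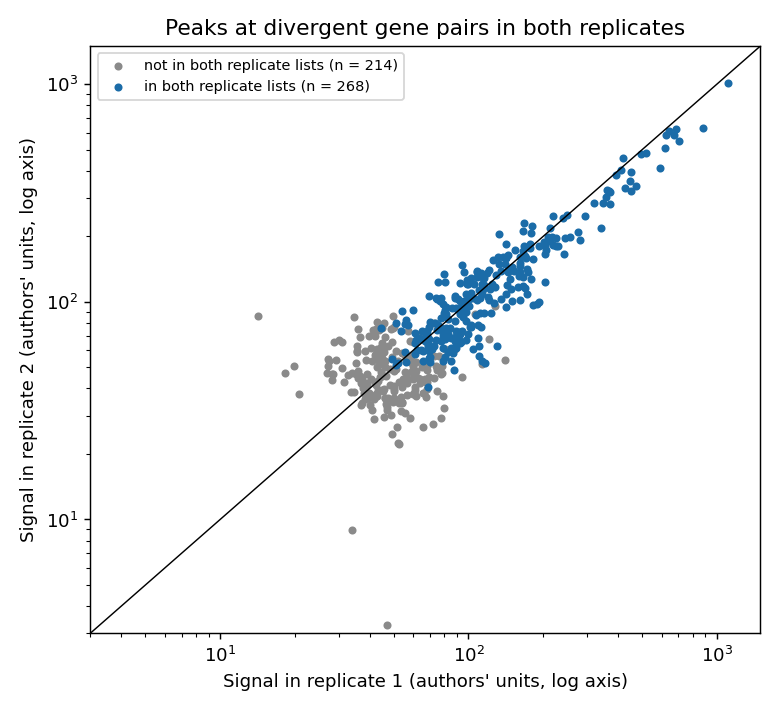
Signal in replicate 1 (x axis) and replicate 2 (y axis) in the authors' units, log axes, for the 482 members whose summit lay in a candidate region of both. Blue points are the 268 in the lists of both replicates, grey points the other 214, and the line marks equal values.

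Nearly all members lay at head-to-head pairs, as did nearly all candidate regions at divergent pairs. In 500 of the 514 members (97.3%) the nearest minus-strand TSS lay at the lower coordinate, so that the genes point away from each other, beside 5649 of all 5962 divergent candidate regions (94.8%), passing or not. In 14 the order was the other way and the first parts of the genes overlap, as at Adck1 and CG4741 (signal 409), at Trf2, a TBP-related factor gene, and lawc (328), and at the DNA-binding factor gene pita and the caspase gene Dcp-1 (73.9). Head-to-head TSSs were 6 to 1743 bp apart, with a median of 318.5 bp (quartiles 229 and 516.5). The members fell on 477 different pairs. Of the 514, 471 had exactly 2 genes with a TSS within 1 kb, and 1 had 10, at the many annotated starts of mod(mdg4) fragments. Summits lay outside protein-coding genes in 272 members, in 5' UTRs in 124, in introns in 91, in coding exons in 25 and in 3' UTRs in 2.

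The distance from the summit to the nearer TSS differed with the spacing of the pair. Its median was 58 bp where the TSSs were up to 200 bp apart (99 members), 97.5 bp at 200 to 400 bp (216 members), 99.5 bp at 400 to 1000 bp (164 members, quartiles 50 and 162) and 228 bp at wider spacings (21 members, quartiles 190 and 440). A summit between the TSSs cannot be farther from the nearer one than the midpoint is, so these medians alone do not show a preference for 1 side. In 145 of 185 head-to-head members with over 400 bp between the TSSs the summit was within 200 bp of one (78.4%, exact 95% interval 71.7 to 84.1), against 984 of 1818 candidate regions at such pairs that had not passed (54.1%, 51.8 to 56.4). The nearer TSS was on the plus strand in 266 of the 510 members with unequal distances (52.2%, 47.7 to 56.6), so neither strand was favoured beyond counting error.

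**Figure D3:**
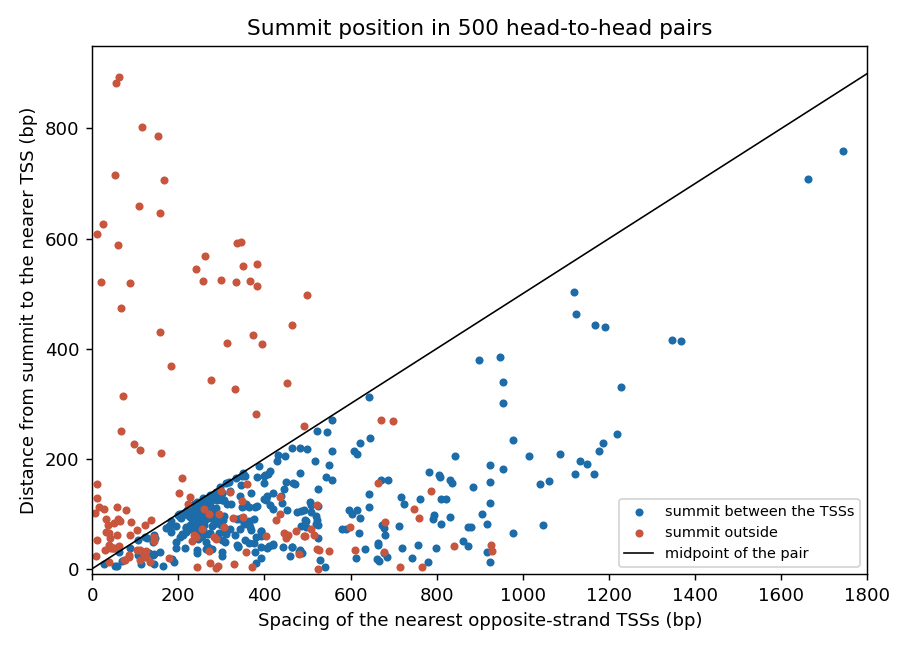
Distance from the summit to the nearer TSS (y axis, bp) against the spacing of the opposite-strand TSSs (x axis, bp) for the 500 head-to-head members. Points on the line have their summit at the midpoint, and blue points (summit between the TSSs) cannot lie above it. Over all members the median distance was 99.5 bp at spacings of 400 to 1000 bp and 228 bp at wider ones.

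Most summits lay between the nearest TSSs of the 2 strands. TSSs of all transcripts count here, so such a summit can lie inside a longer transcript, as in an intron at PNPase and Gprk2. With 1 TSS per gene, 62.6% of head-to-head summits lay between. In 351 of the 500 head-to-head members the summit was between the TSSs (70.2%, exact 95% interval 66.0 to 74.2), against 1211 of 5149 candidate regions at head-to-head pairs that had not passed (23.5%, 22.4 to 24.7). The contrast held at each spacing up to 1 kb: 79.2% against 15.1% at 200 to 400 bp, 77.4% against 35.6% at 400 to 1000 bp, and 32.3% against 8.18% at spacings up to 200 bp. At wider spacings the rule itself places the summit between the TSSs. The totals include these cases, 21 members and 244 regions that had not passed. This position is shared with other promoter peaks. The summit was upstream of its nearest TSS in 70.2% of members and in 69.6% of one-direction promoter peaks. What differed was the distance: 83.7% of members (430 of 514) and 42.1% of one-direction promoter peaks (460 of 1093) were within 200 bp of a TSS. Among candidate regions that had not passed the share was also higher at divergent pairs, at 39.0% against 22.0%. A summit at a divergent pair has more TSSs nearby by the rule itself, so these shares were not tested.

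Candidate regions at divergent pairs passed the authors' threshold more often than those at other promoters. Over all main arms 2877 of 139318 candidate regions were called (2.07%). At divergent pairs 514 of 5962 passed (8.62%, exact 95% interval 7.92 to 9.36), at one-direction promoters 1093 of 27696 (3.95%, 3.72 to 4.18), and where no TSS was within 1 kb 1270 of 105660 (1.20%). The odds ratio between the first 2 was 2.30 (95% interval 2.06 to 2.56, Fisher's exact test, two-sided, p = 6.63e-46). Neighbouring candidate regions share reads and are not independent, so this p describes the list. The replicates' own lists gave the same direction. In replicate 1, 373 of 4931 candidate regions at divergent pairs were called (7.56%) and 724 of 23585 at one-direction promoters (3.07%), beside 1.51% of all. In replicate 2 these were 364 of 5740 (6.34%) and 684 of 25940 (2.64%), beside 1.39% of all. The difference was also present close to genes: within 200 bp of a TSS, 16.8% of candidate regions at divergent pairs and 7.29% at one-direction promoters passed (odds ratio 2.58, exact p = 1.74e-38).

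**Figure D4:**
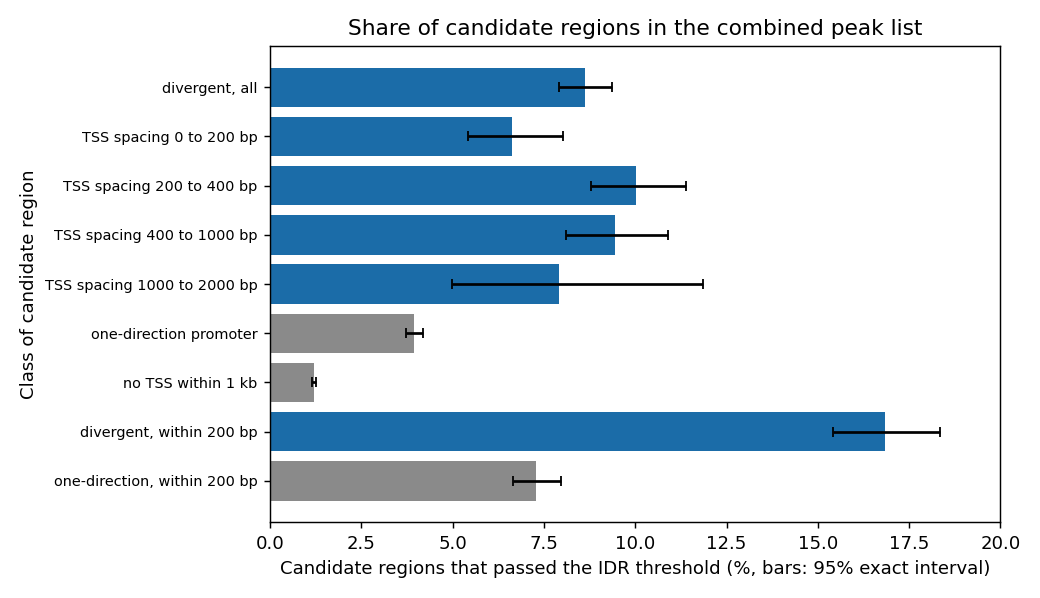
Share of candidate regions that passed the threshold (x axis, %, error bars: exact 95% intervals) at divergent pairs, in all and by TSS spacing (blue), and in other classes (grey). Divergent pairs stand at 8.62%, one-direction promoters at 3.95% and regions without a TSS within 1 kb at 1.20%, and the lowest 2 bars show regions within 200 bp of a TSS.

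Seen from the genes, about 1 pair in 5 was bound. The annotation holds 2667 head-to-head pairs of protein-coding genes with TSSs at most 1 kb apart, and 517 of them had a summit within 1 kb of both genes (19.4%, exact 95% interval 17.9 to 20.9). The share was 16.9% at spacings up to 200 bp, 23.7% (287 of 1209) at 200 to 500 bp and 14.4% (97 of 672) at 500 to 1000 bp, and the interval of the middle group, 21.4 to 26.2, does not overlap the others. A summit had to lie within 1 kb of both genes, so the stretch of DNA that can qualify is shorter at wider spacings. The 3 shares are therefore not on equal terms, and their differences were not tested. A few pairs held several peaks. Of the 477, 33 had more than 1 and 4 had 3. At Adk2, an adenylate kinase gene, and RpS12 each TSS had a peak of its own: 1 summit was 44 bp from Adk2 (signal 102, 62.4 in replicate 1 and 44.6 in replicate 2) and another 47 bp from RpS12 (114, 74.5 and 39.1). The third peak there (4.69) overlapped the latter. At Faf2 and Grip71, a gamma-tubulin ring protein gene, the summit at the promoter had 266 and the others, in Grip71, had 60.7 and 19.5.

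Among the 18 gene lists examined, cytosolic ribosomal protein genes had the highest share with a member peak. A member peak lay within 1 kb of a TSS of 1001 of 13945 protein-coding genes (7.18%) and of 34 of 86 ribosomal protein genes (39.5%). Genes with an opposite-strand TSS within 1 kb are the ones that could qualify most easily: among them 974 of 5141 genes in all (18.9%) and 34 of 53 ribosomal protein genes (64.2%) had one. Their signals were ordinary, with a median of 135 against 138 over all 1001 genes. RpS27 shares its promoter with the nuclear pore gene Nup37 and reached 408.5 (replicates: 242 and 166). RpL34b with CG8132 had 353 (177 and 177), and RpL32 with CG7943 had 342 (170 and 163). All 3 passed in both replicates.

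At these pairs the summit usually lay on the ribosomal gene's side. In 33 of the 39 members whose nearest genes include 1 ribosomal protein gene and a partner of another kind, the summit was nearer to the ribosomal gene, with a median distance of 43 bp to its TSS and 324 bp to that of the partner. At RpL28 and the translation factor gene eIF1 (signal 125) it was 57 bp from RpL28 and 324 bp from eIF1, and at RpS27 26 bp from it and 118 bp from Nup37. In other lists the summit was nearer to the list gene in 7 of 11 members for the respiratory chain, 4 of 7 for translation factors, 4 of 5 for aminoacyl-tRNA synthetases, 3 of 4 for Polycomb and trithorax genes, 4 of 10 for mitochondrial ribosomal proteins and 7 of 17 for RNA polymerase II machinery. No test was made of these counts.

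Of 75 mitochondrial ribosomal protein genes, 10 had a member peak, all among the 59 with an opposite-strand TSS (16.9%, beside 18.9% of all genes), and the median signal of the 10 was 411. mRpL41, mRpS23 and mRpS10 (all above) led the list. Of 69 genes of RNA polymerase II machinery 16 had one (23.2%), with 33.3% of those with an opposite-strand TSS, among them Ssl1, the Mediator gene MED30 (292) and the TFIIA gene TfIIA-L (231). Of 18 insulator and promoter factor genes 6 did (33.3%), namely Adf1, Chro, Cp190 (341), pzg (165), BEAF-32 (117) and M1BP (97.6). Among the 10 with an opposite-strand TSS 5 did (50%).

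Other lists of basic functions had shares between 11.5% and 25% of genes with an opposite-strand TSS, around the 18.9% of all genes. The respiratory chain had 10 of 46 (ND-ASHI, 314, ND-MWFE, 195, and blw, 157, the strongest), translation factors 7 of 28 (eIF2Bbeta, eIF5B, 164, and eIF1), aminoacyl-tRNA synthetases 5 of 24 (LeuRS-m, 390, GluProRS, 299, and SerRS, 175) and Polycomb and trithorax genes 4 of 21 (brm, 783, E(z), 255, and Su(z)12, 148). The summit of the peak listed for LeuRS-m lay in an intron, 872 bp from the TSS of LeuRS-m and 706 bp from that of Dhc64C. DNA replication had 4 of 26 (PolD2, 470, geminin, 88.3, and the shared promoter of RPA1 and Mcm2, 82.3), splicing factors 4 of 30 (U2af50, 214, snRNP-U1-C, 160, and Sf3b6, 130) and the proteasome 3 of 26 (Rpn3, 122.7, Prosbeta1, 84.5, and Prosalpha3, 74.4). The summit at U2af50 lay in no candidate region of replicate 1, and its signal in replicate 2 was 82.6. RPA1 and Mcm2 formed the only member pair with both genes in the same list; RPA1 coats single-stranded DNA and Mcm2 is part of the replicative helicase.

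Lists of developmental genes differed in how many members have a divergent neighbour. Over all protein-coding genes 7.18% had a member peak, and 18.9% of those with an opposite-strand TSS within 1 kb. The counts below are small, and their difference from these shares was not tested. Of 34 segment polarity genes 10 have an opposite-strand TSS within 1 kb, and 1, Apc, a negative regulator of Wingless signalling, had a member peak (81.3; 28.3 in replicate 1 and 43.6 in replicate 2), in neither replicate's own list. None of the 24 gap and pair-rule genes has such a TSS, and none had a member peak. Nor did any of the 11 Hox genes and cofactors, of which 1 has such a TSS, or of the 19 Dpp pathway genes, of which 8 do. Of 23 Notch pathway genes 2 had a member peak (8.70%, beside 7.18% of all genes), mam (98.0) and dx (96.0), both among the 9 with an opposite-strand TSS (22.2%, beside 18.9%). Of 25 EGFR and FGF genes, 10 of them with such a TSS, 1 did, the EGF receptor ligand gene Krn (165). Of 120 odorant and gustatory receptor genes 3 did (2 of the 16 with such a TSS, 12.5%), Or88a (209), Gr64a (103) and Gr32a (102). In the last 3 and in mam and dx the summit was nearer to the partner gene, as in dx, 723 bp away, where it was 20 bp from the ribosomal gene RpL7A. The genes gsb and gsb-n have no opposite-strand TSS within 1 kb and no member peak.

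The sequence at the summits differed from that at other promoter peaks in 6 of 9 motifs. Each was searched on both strands within 100 bp of the summit, and members were set against one-direction promoter peaks with a two-sided Fisher exact test, adjusted over the 9 motifs (Benjamini-Hochberg). The DRE was in 42 of 514 members (8.17%, exact 95% interval 5.95 to 10.9) and 28 of 1093 one-direction peaks (2.56%), for an odds ratio of 3.38 (95% interval 2.07 to 5.53, exact adjusted p = 5.19e-06). It was in 2.79% of divergent candidate regions that had not passed, and in 6.45% of windows of the same length centred on the TSSs of all protein-coding genes. The latter share is inside the members' interval. Among summits within 200 bp of a TSS the odds ratio fell to 1.76 and the call was lost (exact adjusted p = 0.0555). The sequence CGATA, which every DRE contains, was in 39.9% and 27.2% (odds ratio 1.78, exact adjusted p = 4.31e-06) and in 37.1% of windows at all TSSs. The members' exact 95% interval for CGATA, 35.6 to 44.3, holds the last share. For this element the call was lost in the list of replicate 2 (1.34, exact adjusted p = 0.0599).

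GAGA repeats were rarer at divergent pairs than at one-direction promoter peaks. The sequence GAGAGAG, bound by GAGA factor, was in 10 members (1.95%, exact 95% interval 0.937 to 3.55) and 77 one-direction peaks (7.04%, 5.60 to 8.73), an odds ratio of 0.262 (95% interval 0.134 to 0.510, exact adjusted p = 2.55e-05). All windows at TSSs held it in 4.69% and divergent candidate regions that had not passed in 2.22%, close to the members. Peaks with no TSS within 1 kb held it in 2.83% (exact 95% interval 1.99 to 3.90), which overlaps the interval of the members. A low share was thus not particular to divergent pairs. Under all 13 alternatives the odds ratio was between 0.144 and 0.435 and passed the test (adjusted p at most 0.0201).

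The homeodomain site TAATTA was more frequent, at 18.3% (15.04 to 21.9) of members against 11.3% of one-direction peaks (odds ratio 1.77, 95% interval 1.32 to 2.36, exact adjusted p = 0.000298). All windows at TSSs held it in 9.39% and divergent candidate regions that had not passed in 6.81%. Members had a median GC content of 36.3% and one-direction peaks of 38.3%. Stratified by GC content the odds ratio was 1.57 (Mantel-Haenszel adjusted p = 0.00698), and near TSSs it was 1.82 (exact adjusted p = 0.00657). In 3 of 13 alternatives the call was lost: in the list of replicate 1 (1.38, exact adjusted p = 0.0802), with global IDR limited to 0.001 (1.53, exact adjusted p = 0.0675) and among peaks above the median signal (1.47, exact adjusted p = 0.0549). In the list of replicate 2 it was 1.49 (exact adjusted p = 0.0456). The 94 members with the site had a median signal of 150 and the other 420 of 131, and in 59 of the 94 a copy lay within 50 bp of the summit.

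TATAAA was in 205 members (39.9%) and 29.3% of one-direction peaks (odds ratio 1.60, exact adjusted p = 6.89e-05), beside 26.9% of windows at all TSSs and 13.5% of divergent candidate regions that had not passed. It counts wherever these letters occur in the window, not only at the place of a TATA box. The call was lost in 3 of 13 alternatives: in the list of replicate 2 (1.24, exact adjusted p = 0.139), with global IDR limited to 0.001 (1.32, exact adjusted p = 0.0963) and among peaks above the median signal (1.34, exact adjusted p = 0.0549). The E-box CAGCTG was in 15.4% (exact 95% interval 12.4 to 18.8) and 10.8% (odds ratio 1.501, exact adjusted p = 0.0170). Windows at all TSSs held it in 13.4% and divergent candidate regions that had not passed in 13.6%, both inside the members' interval. It lost its call in 6 of 13 alternatives, as in the list of replicate 1 (1.18, exact adjusted p = 0.426) and within 200 bp of a TSS (1.22, exact adjusted p = 0.348). The core GTCACGC of paired-domain sites was in 9 members (1.75%, exact 95% interval 0.804 to 3.30) and 9 one-direction peaks (0.823%). The odds ratio was 2.15 (95% interval 0.847 to 5.44, exact adjusted p = 0.155), and these counts are too few to tell whether the shares differ. Windows at all TSSs held the core in 1.14% and divergent candidate regions that had not passed in 1.19%, both inside the members' interval. The site GGTCACACT of M1BP was in 12 members (2.33%) and 1.28% of one-direction peaks (exact adjusted p = 0.155), below the 4.42% of windows at all TSSs. The sequence ACAGTG was in 17.3% and 20.3% (odds ratio 0.822, exact adjusted p = 0.176), both above the 9.72% of windows at all TSSs.

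**Figure D5:**
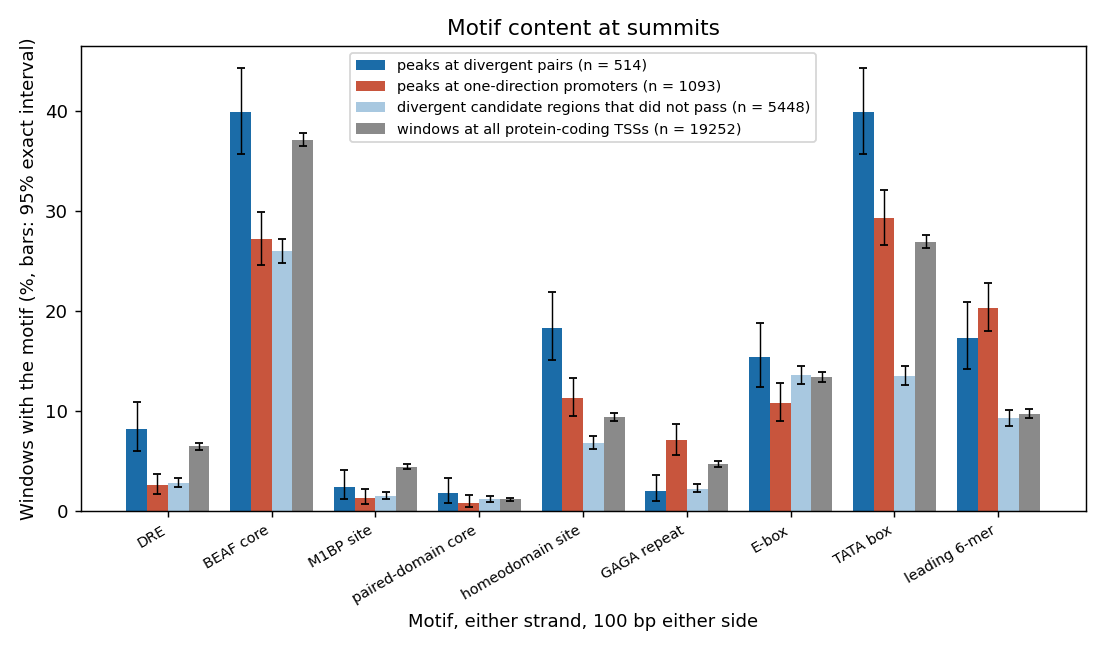
Share of windows of 100 bp either side that hold each motif (y axis, %, error bars: exact 95% intervals) for members, one-direction promoter peaks, divergent candidate regions that had not passed and all protein-coding TSSs. The GAGA repeat is at 1.95% of members against 7.04% of one-direction peaks, and the homeodomain site at 18.3% against 11.3%.

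Members were spread over all large arms. They were 20.7% of the peaks on 3R, 19.0% on 2L, 18.7% on 3L, 18.0% on 2R and 11.97% on X (59 of 493, exact 95% interval 9.24 to 15.2). Arm 4 had no candidate region at a divergent pair, so no member could occur there. At divergent pairs of X 6.31% of candidate regions passed (4.84 to 8.06), and on 3L 10.9% (9.15 to 12.9). At the limit of the rule, the member with the most distant second TSS was at Sec13 and ATPsynCF6, 996 bp from the latter (signal 124). The first peak outside it lay 663 bp from ken and 1007 bp from Mtpbeta (88.3).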

How the data were processed

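Both replicates' peak lists were on assembly dm6, per the labels and the deposited read-me notes. Sonicated fragments ranged from 200 to 800 bp according to the labels. Each deposited region carries a signal (the authors' peak caller value, of unstated scale), a deposited score capped at 1000 and, in ranked lists, a deposited −log10 of the global irreproducible discovery rate (IDR, which scores how well replicates rank a region alike). All 2877 peaks have a global IDR of at most 0.01. For the aligner and peak caller, versions and control use included, names were not given in the sources used here. In the series-level ranked lists, 16 further columns were not used.

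Members were found with Ensembl release 115 TSSs of protein-coding genes (all transcripts), coordinates 1-based. Replicate signals are those of the strongest candidate region of each replicate that holds the summit. Candidate regions are those of the ranked list over both replicates that contains all combined peaks. Tests used Python 3.11.15, SciPy 1.17.1 and statsmodels 0.14.6, with a threshold of 0.05. Odds ratio intervals are normal approximations on the log scale. Peaks of 1 list are not replicates, so tests describe the lists. The scripts were tested on simulated data. Genes named are those of the 15 strongest members, up to 3 per list, pairs with several peaks or with both genes in 1 list, and those at the rule's limit. Others, such as the overlapping pairs, BEAF-32, M1BP and RpL7A, were picked with their values in view. The members, lists and motifs were chosen with earlier results of these data known.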

Additional observations from a re-analysis of the deposited data

How the results depend on the processing

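The higher pass share at divergent pairs kept its direction and its call under all 10 alternatives, with odds ratios from 1.69 to 3.70 and a highest exact p of 5.04e-27. The number of motifs past the threshold was 4 to 7. The cause of the changes below was not tested, except that a window of another size or a shorter list changes which peaks count.

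With a window of 500 bp, members were 12.3% of peaks, 77.2% of head-to-head summits lay between the TSSs, the ratio of median signals was 1.22 and 17.8% of gene pairs had a peak. With 2 kb these were 25.7%, 63.4%, 1.06 and 22.9%, and the odds ratio of presence in both lists was 1.11 (exact p = 0.282). At a global IDR of at most 0.001 they were 22.5%, 76.9%, 1.07 and 10.8%, with an odds ratio of 1.24 (exact p = 0.452), and among peaks above the median signal 22.0%, 78.1%, 1.04 and 12.9%, with 1.05 (exact p = 0.856). In the conservative list that odds ratio was 1.21 (exact p = 0.0810). With 1 TSS per gene, 62.6% lay between and the median ratio was 1.16, and within 200 bp of a TSS the ratio was 1.16. In the list of either replicate alone, the 4 values were 20.01% to 21.4%, 74.9% to 75.2%, 1.03 to 1.06 and 14.0% to 14.5%. The M1BP site changed direction within 200 bp of a TSS (odds ratio 0.915, against 1.84) and passed the test with a 2 kb window and in the list of replicate 1. The sequence ACAGTG passed it, as lower at divergent pairs, in 5 of 13 alternatives. Leaving out peaks that overlap a stronger one, an alternative chosen after seeing the data, changed no call. No paired analysis was possible because there was 1 group.

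The depth of the libraries is unknown, so weak binding cannot be told from absence.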
